A study of Mus musculus with 8 samples.

Results

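The mouse genes Dsg2, Dsc2, Cldn7, Mpzl2, Sdc4, Enpep and Alpl encode adhesion, junction and ectoenzyme proteins of the cell surface. They were chosen by their higher signal in leukemia-initiating cells lacking Ezh2 than in those with it, so that difference is described here and not tested. They are 7 of the 12393 genes measured, and are covered by 16 of the 22690 probe sets of an Affymetrix array. Expression was measured in 8 arrays of total RNA from sorted bone marrow cells of C57/BL6 mice labelled as 12 weeks old. The first group was 3 samples of normal stem and progenitor cells of the LSK phenotype (lineage negative, Sca1 positive, Kit positive). The second was 3 samples of wild-type chronic myeloid leukemia (CML) leukemia-initiating cells (WT LICs), which were GFP+ cells of the same phenotype taken 14 days after transplantation in a retroviral mouse model. The third was 2 samples of Ezh2 KO LICs from that model at the same day. Every sample was sorted a second time for purity. The sources used here do not say how Ezh2 was deleted or whether animals were pooled. Both LIC groups differ from LSK cells in transplantation and retroviral infection as well as in leukemia. The Y-linked gene Eif2s3y, chosen after its values were seen, read 1.29 to 1.63 on the LSK arrays and 9.21 to 9.80 on all LIC arrays, so every comparison with LSK cells also holds a difference in Y-linked signal, and the labels give no sex. The parts of these differences cannot be told apart. The repeats are labelled as biological.

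Ezh2 is the catalytic subunit of Polycomb repressive complex 2, which places trimethylation on lysine 27 of histone H3 and is known for keeping developmental and lineage genes silent. Desmosomes and tight junctions join neighbouring epithelial cells, and their cadherins and claudins are best known from epithelia. Hematopoietic cells meet the marrow matrix and stroma through integrins, heparan sulfate proteoglycans and immunoglobulin-family receptors instead.

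Log2 intensity was used throughout. Levels of different genes were not compared, since probe sets differ in their brightness. A group mean at or under 4.01, the highest mean among 27 probe sets for unspiked bacterial RNAs, was taken as background, and a fold against such a group is given as a lower bound. Array medians lay between 6.42 and 6.57. The targeted gene was lower in the KO samples: Ezh2 averaged 10.93 ± 0.15 in LSK cells and 11.34 ± 0.09 in WT LICs (each SD with n = 3), and read 8.94 and 9.55 in the KO samples (KO minus WT -2.10, SE 0.21, limma adjusted p = 0.00985; 0.0550 with those groups fitted alone). The KO values remained above background, and where this probe set lies relative to the deleted part of the gene is not known here. Its paralog Ezh1 averaged 8.44, 7.83 and 6.62 in the same order, and its KO to WT difference of -1.20 did not pass (limma adjusted p = 0.212), while its KO to LSK difference of -1.82 did (limma adjusted p = 0.0292, lost under 7 of 17 alternatives, up to 0.151). Of 9 stem and progenitor markers measured, 8 lay above background in each group, among them Kit at 10.95, 9.77 and 10.17, and Mecom lay under it. WT LIC replicate 3 stood apart from the other WT LIC arrays in genes chosen after their values were seen. Its Xist was 4.35 against 10.68 and 11.06, and its Dntt, the template-free DNA polymerase of early lymphoid cells, was 12.14 against 9.89 and 9.58. Results below are therefore also given without that array where it moved them.

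The 7 genes fell into a pair of patterns over the LSK samples. The contrast they were chosen on did not compare LSK cells. The LSK values did count in picking each gene's brightest probe set and in the spread shared by the groups in the fit. Dsg2, Dsc2 and Sdc4 were present in LSK cells, lower in WT LICs and present again in Ezh2 KO LICs. Cldn7, Mpzl2, Enpep and Alpl were under background in LSK cells and in WT LICs and above it only in Ezh2 KO LICs. Accordingly 3 of the 7 had a mean above background in LSK cells, 2 in WT LICs and 7 in KO LICs, while over all genes the shares above background were 70.5%, 70.5% and 70.8%. The WT LIC and KO counts follow in part from choosing genes higher in KO than in WT LICs, so they are descriptions only.

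**Figure D1:**
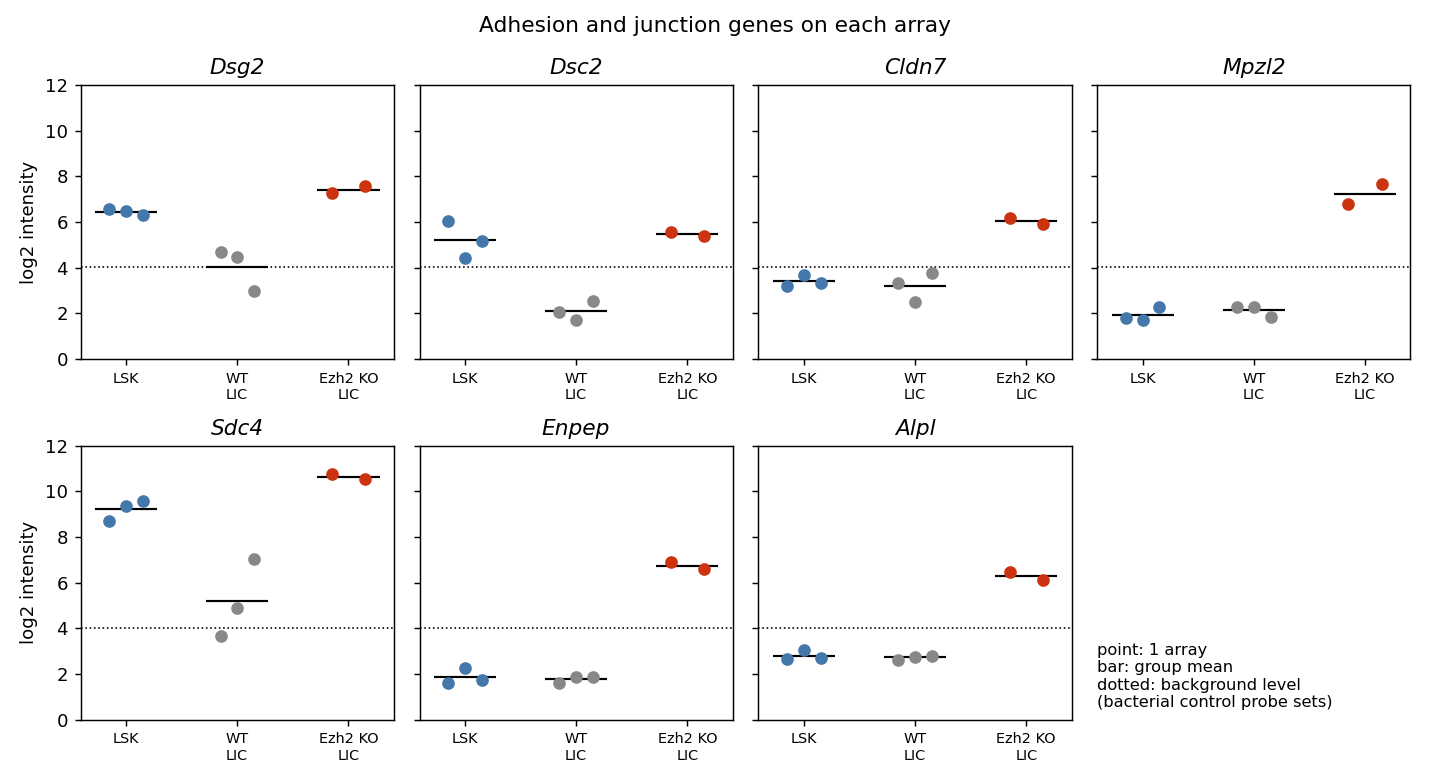
Log2 intensity of the 7 genes on each of the 8 arrays, by group, with the dotted line at the background level of 4.01. Dsg2, Dsc2 and Sdc4 lie above the line in LSK cells and Ezh2 KO LICs, while Cldn7, Mpzl2, Enpep and Alpl lie above it only on the 2 Ezh2 KO arrays.

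Promoter sequence was looked up because Ezh2-dependent silencing is best known at CpG-rich starts. Only RNA was measured here, and silencing of these genes by Ezh2 was not tested. RefSeq windows of assembly GRCm38.p6, reaching from 250 bases before to 50 after an annotated start, were matched by symbol for 4 of the 7 genes, in 6 windows. Dsg2, Dsc2 and Mpzl2 had no entry. The windows of Sdc4 and of the first Alpl start hold more CpG than the median window, and that of Enpep holds fewer; these 3 are printed on the strand of the gene with each CpG in capitals.
Sdc4, chr2:164443139-164443438, minus strand: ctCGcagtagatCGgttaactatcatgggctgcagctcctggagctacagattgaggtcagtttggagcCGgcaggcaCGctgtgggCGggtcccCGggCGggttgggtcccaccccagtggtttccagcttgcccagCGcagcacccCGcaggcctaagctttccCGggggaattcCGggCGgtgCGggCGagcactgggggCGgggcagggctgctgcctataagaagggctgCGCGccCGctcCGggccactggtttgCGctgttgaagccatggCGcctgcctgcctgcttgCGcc
Enpep, chr3:129332700-129332999, minus strand: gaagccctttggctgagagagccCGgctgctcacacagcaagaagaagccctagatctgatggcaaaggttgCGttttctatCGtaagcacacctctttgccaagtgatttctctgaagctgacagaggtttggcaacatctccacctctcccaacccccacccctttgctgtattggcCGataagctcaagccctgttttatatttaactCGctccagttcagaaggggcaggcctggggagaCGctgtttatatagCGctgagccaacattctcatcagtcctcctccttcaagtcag
Alpl, first start, chr4:137796335-137796634, minus strand: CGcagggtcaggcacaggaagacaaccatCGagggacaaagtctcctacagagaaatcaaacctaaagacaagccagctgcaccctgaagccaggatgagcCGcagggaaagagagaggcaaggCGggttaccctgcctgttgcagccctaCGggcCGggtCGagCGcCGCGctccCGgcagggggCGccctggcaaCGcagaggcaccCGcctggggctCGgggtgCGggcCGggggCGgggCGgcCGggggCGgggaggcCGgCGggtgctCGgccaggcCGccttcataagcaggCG
The Sdc4 window held 22 CpG at a GC content of 67.7%, and the Alpl window held 26 CpG at 70.0%. The Enpep window held 7 CpG at 51.3%. Over 12559 windows of the measured genes the median was 17 CpG and 59.0% GC.

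The windows differed widely in CpG density. The ratio of observed to expected CpG was 0.645 for Sdc4, 0.360 for Enpep and 0.720 for the first Alpl start. It was 0.181 for the second Alpl start (chr4:137766426-137766725, minus strand), and 0.358 and 0.585 for the Cldn7 starts (chr11:69964529-69964828 and chr11:69965171-69965470, plus strand). The median of all windows was 0.685, with quartiles of 0.353 and 0.873, so that 5 of the 6 windows lay under the median and only the first Alpl start above it. Searched on both strands with overlaps allowed, the TATA motif TATAAA occurred 2 times in the Enpep window and 1 time in the second Alpl window, and 9.80% of all windows held it. The GC box GGGCGG occurred 4 times in the Sdc4 window, 3 times in the first Alpl window and 1 time in the second Cldn7 window, against 55.4% of all windows with at least 1. The AP-1 motif TGANTCA was in none of the 6, and 6.45% of all windows held it. The E-box CAGGTG, found in 19.3% of all windows, occurred 2 times in the second Cldn7 window and 1 time in the second Alpl window. The ETS motif GGAAGT, found in 26.0%, occurred 1 time in each Cldn7 window. A match describes these letters only.

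**Figure D2:**
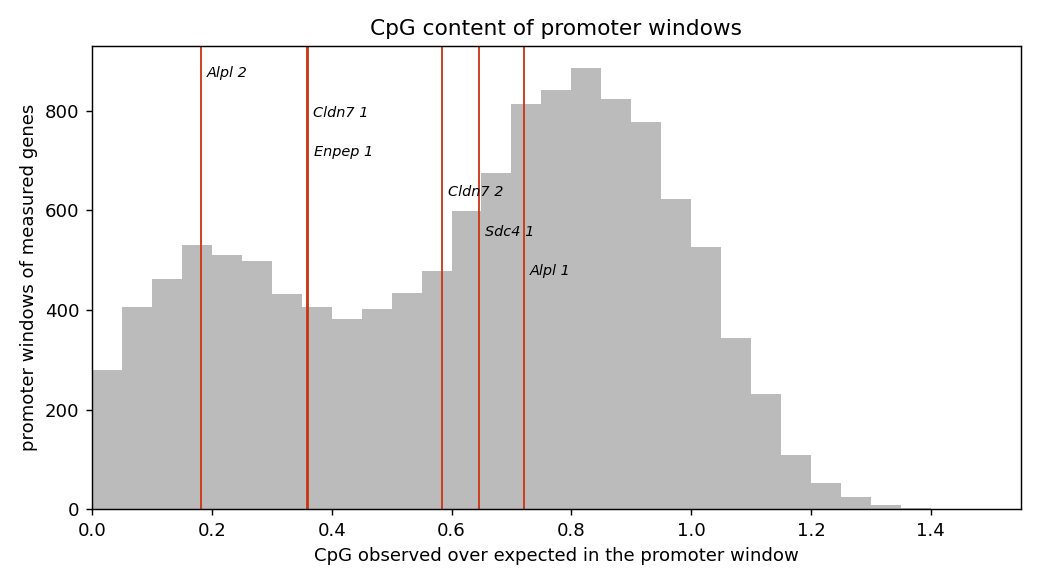
Ratio of observed to expected CpG in 300-base RefSeq promoter windows: the histogram holds the 12559 windows of measured genes and the marks show the 6 windows of Sdc4, Enpep, Alpl and Cldn7. The marked windows spread from 0.181 to 0.720.

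Dsg2 and Dsc2 encode desmoglein 2 and desmocollin 2, the desmosomal cadherins that pair across the gap between cells and are the broadly expressed members of their families. Dsg2 (probe set 1449741_at) read 6.55, 6.50 and 6.32 in LSK cells, 4.67, 4.47 and 3.00 in WT LICs, and 7.26 and 7.58 in Ezh2 KO LICs. No WT LIC value reached the LSK range, and both KO values lay above it. Dsg2 fell by 2.41 on the log2 scale from LSK cells to WT LICs (SE 0.41, 5.32-fold, limma adjusted p = 0.0276). KO LICs stood 3.37 above WT LICs (SE 0.46, 10.4-fold), the difference it was chosen on. The WT LIC mean of 4.05 was barely above background, and replicate 3 lay under it. Both folds therefore rest on a level near background. KO LICs against LSK cells differed by 0.96 (SE 0.46, limma adjusted p = 0.313), which did not pass. Without WT LIC replicate 3, whose Dsg2 value was the lowest, that difference of 0.96 passed (limma adjusted p = 0.0346) and the other 2 became -1.89 and 2.85.

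Dsc2 (probe set 1426911_at) read 6.06, 4.42 and 5.19 in LSK cells, 2.04, 1.72 and 2.56 in WT LICs, and 5.57 and 5.37 in Ezh2 KO LICs. The WT LIC values were all under background, and the KO values lay inside the LSK range. The difference of WT LICs from LSK cells was -3.12 (SE 0.41, at least 2.32-fold lower, limma adjusted p = 0.0118), and that of KO from WT LICs was 3.37 (SE 0.46, at least 2.75-fold higher). KO LICs against LSK cells gave 0.25 (SE 0.46, limma adjusted p = 0.825). The fall of Dsc2 from LSK cells to WT LICs passed under each of the 16 alternative settings in which the gene was tested, with adjusted p between 0.00364 and 0.0481.

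Sdc4 encodes syndecan-4, a transmembrane heparan sulfate proteoglycan that acts with integrins at focal adhesions. Its probe set 1417654_at read 8.70, 9.35 and 9.58 in LSK cells, 3.68, 4.90 and 7.03 in WT LICs, and 10.77 and 10.53 in Ezh2 KO LICs. The groups did not overlap, and the WT LIC values were the most spread of any member in any group (SD 1.69). Sdc4 fell by 4.01 from LSK cells to WT LICs (SE 0.75, 16.1-fold, limma adjusted p = 0.0359). It stood 5.45 higher in KO than in WT LICs (SE 0.84, 43.6-fold), the difference it was chosen on. The KO to LSK difference was 1.44 (SE 0.84, limma adjusted p = 0.407). WT LIC replicate 3 held the highest of the WT values, and without it the differences were -4.92 from LSK cells (limma adjusted p = 0.00307) and 6.36 between KO and WT LICs.

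Cldn7 encodes claudin-7, a tight junction protein of epithelial cells. Its probe set 1448393_at read 3.19, 3.68 and 3.34 in LSK cells, 3.34, 2.49 and 3.76 in WT LICs, and 6.18 and 5.91 in Ezh2 KO LICs. The first 6 values overlapped and were all under background. KO LICs exceeded LSK cells by 2.64 (SE 0.36, at least 4.09-fold, limma adjusted p = 0.0144) and WT LICs by 2.84 (SE 0.36, at least 4.09-fold). The call against LSK cells was lost without KO replicate 1 (limma adjusted p = 0.0816) or without KO replicate 2 (limma adjusted p = 0.0640).

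Mpzl2 encodes myelin protein zero-like 2, an immunoglobulin-family adhesion protein of epithelia that is also known from thymus. Its probe set 1416236_a_at read 1.79, 1.71 and 2.27 in LSK cells, 2.28, 2.29 and 1.86 in WT LICs, and 6.78 and 7.65 in Ezh2 KO LICs. Both KO values were far above the other 6, which were all under background. The difference from LSK cells was 5.29 (SE 0.30, at least 9.23-fold, limma adjusted p = 0.000419) and that from WT LICs 5.08 (SE 0.30).

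Enpep encodes glutamyl aminopeptidase, a membrane enzyme that cleaves angiotensin II and is the BP-1 antigen of early B cells in the mouse. Its probe set 1448649_at read 1.60, 2.25 and 1.72 in LSK cells, 1.60, 1.87 and 1.88 in WT LICs, and 6.90 and 6.59 in Ezh2 KO LICs. The LSK and WT LIC values overlapped, and the KO values stood apart. The difference from LSK cells was 4.89 (SE 0.23, at least 6.65-fold, limma adjusted p = 0.000229) and that from WT LICs 4.96 (SE 0.23).

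Alpl encodes tissue-nonspecific alkaline phosphatase, an ectoenzyme of osteoblasts, liver and kidney that is also found on neutrophils and some other leukocytes. Its probe set 1423611_at read 2.66, 3.04 and 2.70 in LSK cells, 2.64, 2.76 and 2.81 in WT LICs, and 6.46 and 6.11 in Ezh2 KO LICs. The difference from LSK cells was 3.49 (SE 0.19, at least 4.84-fold, limma adjusted p = 0.000287) and that from WT LICs 3.55 (SE 0.19). The calls of Mpzl2, Enpep and Alpl against LSK cells passed under each of the 17 alternative settings.

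Counted over the members, WT LICs against LSK cells gave 3 lower (Dsg2, Dsc2 and Sdc4), 0 higher and 4 not called, and the same 3 did not overlap between the groups. Of all genes, 3.42% were called in that comparison, 2.15% were called lower, and 13.2% had all WT LIC values under all LSK values. The median difference was -0.21 for the members and 0.02 for all genes. Ezh2 KO LICs against LSK cells gave 4 higher (Cldn7, Mpzl2, Enpep and Alpl), 0 lower and 3 not called. Every member except Dsc2 had both KO values above all LSK values, 6 in all, beside 18.2% of all genes. In that comparison 3.47% of genes were called and 1.61% were called higher, and the median was 2.64 for the members and -0.02 for all genes. These comparisons share the WT LIC or the KO arrays with the choice of the members, so a gene chosen for a low WT or a high KO level was more likely to be called in them.

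For Ezh2 KO against WT LICs the members ranged from 2.84 (Cldn7) to 5.45 (Sdc4), with a median of 3.55 beside -0.05 for all genes. Of all genes, 0.637% were called there, 0.589% were called higher, and 13.2% had both KO values above all WT LIC values. All 7 members passed both rules, as they had been selected on that contrast, and nothing is read from it. In sorted bulk cells, a lower signal from fewer expressing cells and one from less RNA per cell cannot be told apart.

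**Figure D3:**
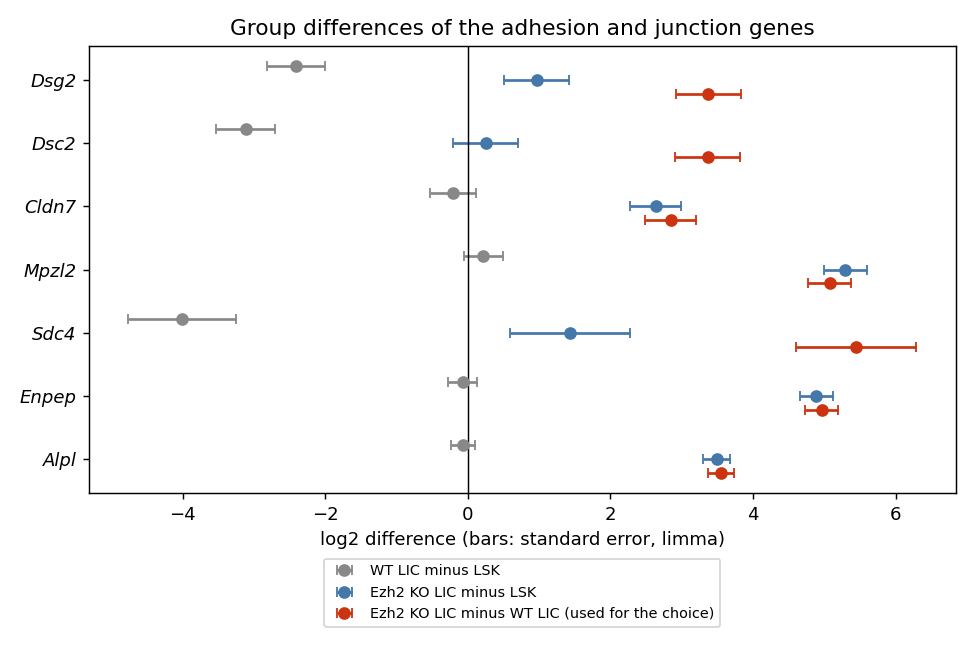
Log2 differences of the 7 genes in the 3 comparisons, with standard errors from limma. WT LICs against LSK cells are at or below -2.41 for Dsg2, Dsc2 and Sdc4 and within 0.22 of 0 for the other 4, while Ezh2 KO LICs against LSK cells are at or above 2.64 for those 4.

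Calls for Dsg2 and Sdc4 in WT LICs against LSK cells rested on few arrays. The call of Dsg2 was lost under 4 of 17 alternatives, namely when WT LIC replicate 2 or any 1 LSK array was left out, with limma adjusted p up to 0.0821. The call of Sdc4 was lost under 8, namely with the compared groups alone and without any 1 array other than WT LIC replicate 3, with limma adjusted p up to 0.110. Their differences kept the same sign under all 17, between -2.72 and -1.23 for Dsg2 and between -4.92 and -2.67 for Sdc4.

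Further probe sets of the same genes gave the same sign where they were above background on any array. Of the 6 Dsg2 probe sets, 1449740_s_at read 4.28 and 1439476_at read 3.42 higher in KO than in WT LICs, beside 3.37 for the brightest. The next, 1425619_s_at, was above background on the 2 KO arrays only and differed by 1.39. The last 2 were under background on every array (1.08 and -0.12). The second Sdc4 probe set, 1448793_a_at, read 2.84, 5.38 and 4.07 in LSK cells, 2.45, 2.99 and 2.85 in WT LICs and 5.30 and 4.47 in KO LICs. Mpzl2 had a second probe set, 1448265_x_at, with a difference of 3.35, and another that was never above background (1.02). The second Dsc2 probe set was likewise never above background (-0.16). Cldn7, Enpep and Alpl had 1 probe set each.

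**Figure D4:**
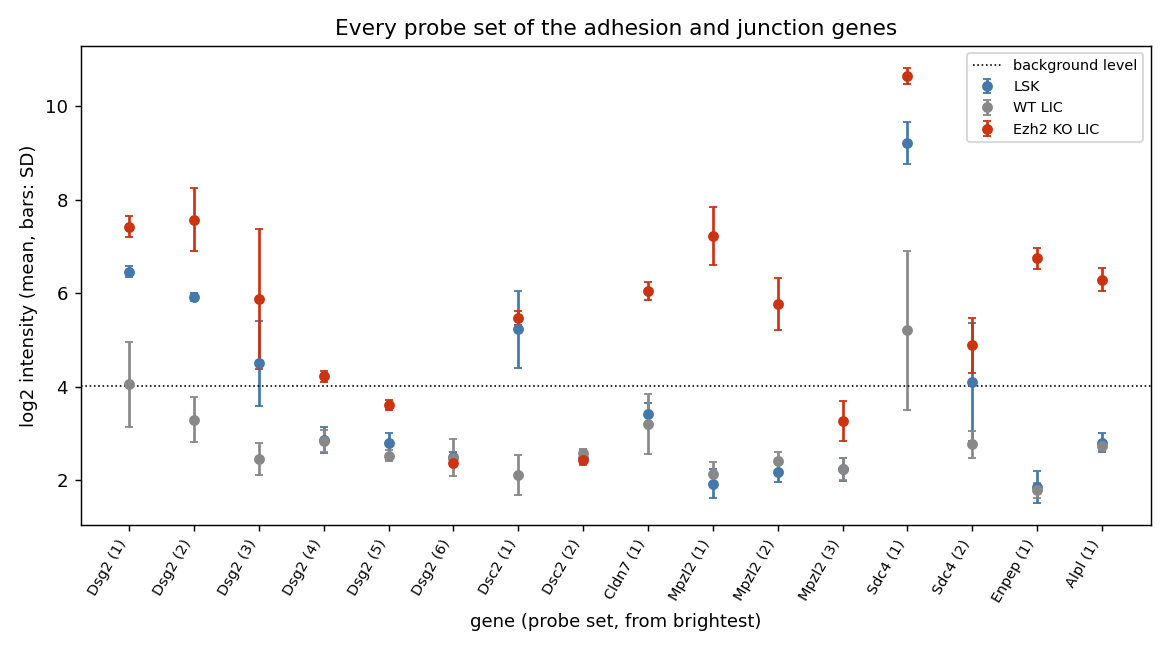
Mean log2 intensity of each of the 16 probe sets of the 7 genes in LSK cells (n = 3), WT LICs (n = 3) and Ezh2 KO LICs (n = 2), numbered from the brightest, with bars for the SD and a dotted line at the background level of 4.01. The KO mean lies highest for 14 of the probe sets, and the last Dsg2 and Dsc2 probe sets lie under the line in every group.

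Across the 8 arrays the members correlated more closely within each pattern than between patterns. Pearson r lay between 0.93 (Cldn7 and Mpzl2) and 0.9996 (Enpep and Alpl) among Cldn7, Mpzl2, Enpep and Alpl. It lay between 0.78 (Dsg2 and Sdc4) and 0.90 (Dsc2 and Sdc4) among Dsg2, Dsc2 and Sdc4. Between the patterns it ran from 0.43 (Dsc2 and Mpzl2) to 0.68 (Cldn7 and Sdc4). The patterns were drawn from the values on these same 8 arrays, so a closer r within a pattern was built in. Cldn7, Mpzl2, Enpep and Alpl were above background on the 2 KO arrays only, which sets the high r among them. All pairs also share the choice by KO level, so these values are descriptions.

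Among 6195 genes with a mean above the median of all genes, the closest in pattern to Dsg2 were Cdkn2c (r = 0.98 over 8 arrays), an inhibitor of cyclin-dependent kinases, Grb10 (0.97) and the mannose 6-phosphate receptor Igf2r (0.96). Cdkn2c averaged 8.12 in LSK cells, 6.51 in WT LICs and 8.59 in KO LICs. Closest to Dsc2 were Btg1, 2810025M15Rik and Bex1 (each 0.97). Bex1 averaged 9.55, 6.58 and 10.33 in the same order. Closest to Sdc4 were the kinase gene Prkce (0.98), Smad5 (0.97), a transducer of bone morphogenetic protein signals, and Tspan6 (0.96).

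The search left out genes with a mean at or under the median of all genes, so dimmer genes could not appear in it. For the other 4 members the heparan sulfate 2-O-sulfotransferase gene Hs2st1 was among the closest each time, with r of 0.945 to Cldn7, 0.981 to Mpzl2, 0.976 to Enpep and 0.973 to Alpl. Its means were 10.22 in LSK cells, 10.23 in WT LICs and 11.04 in KO LICs. The Polycomb repressive complex 1 gene Bmi1 was close to Mpzl2 (0.961), Enpep (0.955) and Alpl (0.953), with means of 10.55, 10.31 and 11.61. The remaining closest genes were the phosphatase gene Ppp6c for Cldn7 (0.946) and Alpl (0.949), Ada for Cldn7 (0.945), Zmat3 for Mpzl2 (0.961) and Ptprf for Enpep (0.952).

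Of the other genes of the junction and adhesion families, Gpc3 was the only one called between KO and WT LICs. Of 174 listed genes that are not members, 143 were measured and 100 were above background in some group. Of the 143, 1 was called higher in Ezh2 KO than in WT LICs, 0 were called lower and 24 had an unadjusted p under 0.05 (limma), with a median difference of 0.03. The 24 are 16.8% of the 143, beside 11.1% of all genes, and the share of 1 in 143 is to be read against the 0.637% of all genes called. Gpc3 encodes a glypican anchored in the membrane by a lipid tail. It read 4.96, 4.13 and 4.18 in LSK cells, 3.85, 3.40 and 3.90 in WT LICs, and 6.37 and 5.94 in KO LICs. Gpc3 rose by 2.44 from WT LICs (SE 0.30, limma adjusted p = 0.0210) and by 1.73 from LSK cells (SE 0.30, limma adjusted p = 0.0300). The WT LIC mean of Gpc3 was under background, and its KO to WT call was lost without WT LIC replicate 1 or 2 or either KO array, with limma adjusted p up to 0.0966. Its call against LSK cells was lost under 6 of 17 alternatives, with limma adjusted p up to 0.148. Without WT LIC replicate 3, 3 listed genes were called: Gpc3, Sdc1 (3.03, limma adjusted p = 0.0171) and Cldn13 (-5.35, limma adjusted p = 0.0172).

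The desmosome partners of Dsg2 and Dsc2 were measured for 9 of 14 genes, of which limma called 0 between KO and WT LICs and 1 (Perp) had an unadjusted p under 0.05. The sister cadherins Dsc1 and Dsc3 were under background in every group, at 2.72, 2.75 and 2.74 for Dsc1 and 2.92, 3.20 and 2.96 for Dsc3. Among the plaque proteins that anchor the cadherins to intermediate filaments, Pkp1 was under background in every group (2.00, 2.04 and 2.55) and Jup and Dsp were above it in every group. Jup, plakoglobin, averaged 7.86 in LSK cells, 6.18 in WT LICs and 7.24 in KO LICs (KO minus WT 1.05, limma adjusted p = 0.511). Pkp2, plakophilin 2, averaged 4.53, 3.51 and 5.59, with the WT LIC mean under background (2.08, limma adjusted p = 0.527), and Dsp, desmoplakin, averaged 4.52, 4.68 and 6.06 (1.38, limma adjusted p = 0.596). Pkp3 went the other way, with means of 5.95, 6.01 and 5.49 (-0.53, limma adjusted p = 0.802). Pkp4 averaged 10.85, 11.22 and 11.69 (0.47, limma adjusted p = 0.453). Jup, Dsp and the Pkp genes were picked after their values were seen. Perp, a tetraspan protein of desmosomes, was 3.77 higher in KO LICs than in LSK cells (SE 0.53, limma adjusted p = 0.0170), with means of 7.06, 9.30 and 10.83. That call was lost with the replicate block and without LSK replicate 3 or either KO array (limma adjusted p up to 0.0842). Its KO to WT difference of 1.53 did not pass (limma adjusted p = 0.361).

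Of 32 tight junction genes measured other than Cldn7, limma called 0 between KO and WT LICs (5 at an unadjusted p under 0.05), and their median difference was 0.03. Tjp1, the scaffold protein ZO-1, rose in both LIC groups, with means of 7.82 in LSK cells, 10.89 in WT LICs and 11.33 in KO LICs. Tjp1 differed from LSK cells by 3.07 in WT LICs (SE 0.24, limma adjusted p = 0.00163) and by 3.50 in KO LICs (SE 0.27, limma adjusted p = 0.00168). F11r, junctional adhesion molecule A, fell by 1.71 from LSK cells to WT LICs (SE 0.25, limma adjusted p = 0.0171). Among 19 adherens junction genes limma called 0 between KO and WT LICs (4 at an unadjusted p under 0.05), and Ctnna1, alpha-catenin, fell by 0.92 from LSK cells to WT LICs (SE 0.16, limma adjusted p = 0.0301). The calls of F11r and Ctnna1 were both lost with the replicate block and with the mean of all probe sets, where the F11r difference was -0.84. The call of F11r was also lost without WT LIC replicate 1 or 2 (limma adjusted p up to 0.0602), and that of Ctnna1 without any 1 LSK array or WT LIC replicate 2 (limma adjusted p up to 0.103).

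The other syndecans gave no call between KO and WT LICs. Sdc1 read 10.74, 9.91 and 10.61 in LSK cells, 6.61, 6.12 and 8.91 in WT LICs, and 9.63 and 9.16 in KO LICs. WT LIC replicate 3 was again the highest WT LIC value, and the KO to WT difference of 2.18 did not pass with it included (SE 0.76, limma adjusted p = 0.361). Sdc2 averaged 7.87, 6.11 and 5.33 (KO minus WT -0.78, limma adjusted p = 0.811). Sdc3 averaged 4.93, 5.18 and 4.99 (-0.19, limma adjusted p = 0.713). A test of Sdc4 against its relatives was not made.

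The remaining lists were not called between KO and WT LICs either, with 0 of 20 immunoglobulin-family genes, 0 of 14 membrane peptidases, 0 of 13 ectophosphatase and phosphate genes and 0 of 24 integrin and homing genes by limma. At an unadjusted p under 0.05 these lists held 3, 2, 3 and 2 genes. Their medians were 0.42, -0.01, -0.06 and -0.08. Against LSK cells, the peptidase Dpp4 fell by 1.06 in WT LICs (SE 0.19, limma adjusted p = 0.0296). The metalloprotease gene Adam8, under background in LSK cells at 3.17, rose by 2.02 in WT LICs (SE 0.23, limma adjusted p = 0.00658) and by 2.32 in KO LICs (SE 0.25, limma adjusted p = 0.00711). The pyrophosphate transporter gene Ank fell by 1.14 in WT LICs (limma adjusted p = 0.0198). Itga2, integrin alpha 2, differed by -1.02 in KO LICs (limma adjusted p = 0.0490), with each group mean under background. The calls of Dpp4 and Itga2 were each lost under more than 8 alternatives, most of them leaving out 1 array, with limma adjusted p up to 0.215 and 0.194, and that of Ank was lost without LSK replicate 3 or WT LIC replicate 1 or 2 (limma adjusted p up to 0.0700).

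**Figure D5:**
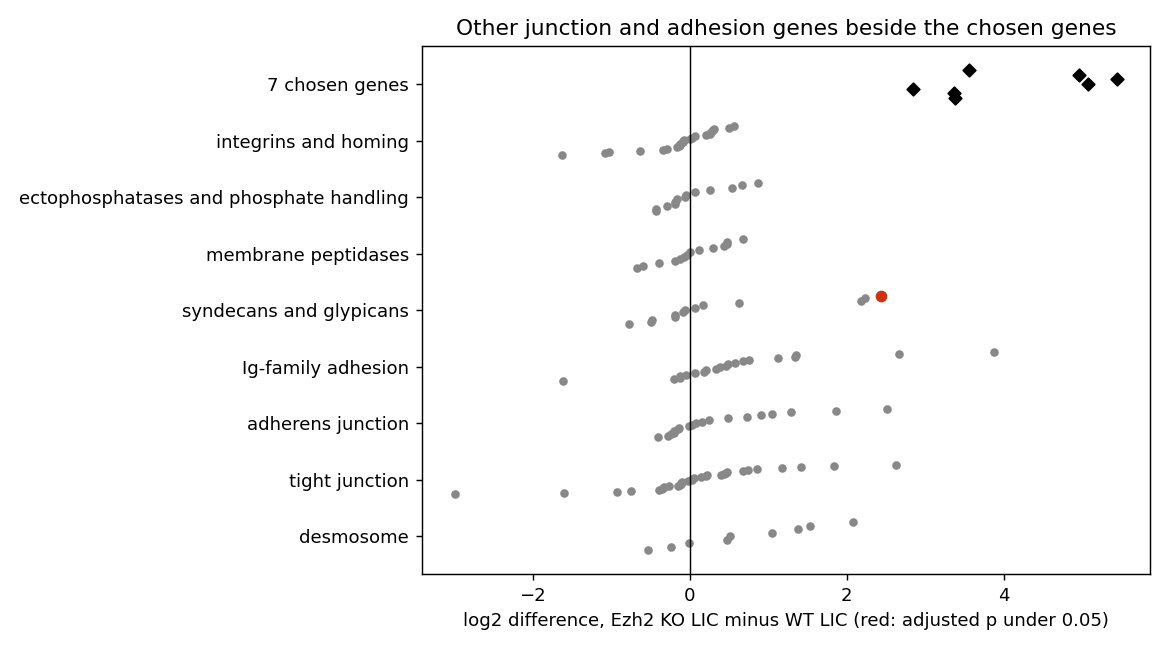
Log2 difference of Ezh2 KO from WT LICs for the measured genes of each junction and adhesion list, with the 7 members as diamonds in a row of their own and called genes in red. The members lie between 2.84 and 5.45, and the medians of the other genes lie between -0.08 and 0.51.

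Genes beside the members on their chromosomes were examined as 37 distinct neighbours, 3 on each side in RefSeq order. Limma called 0 of them between KO and WT LICs, 5 had an unadjusted p under 0.05, and their median difference was -0.06 beside -0.05 for all genes. The silent Dsc1 and Dsc3 belong to these, since the desmosomal cadherin genes lie together. B4galt6, a galactosyltransferase gene near the same cluster, fell by 1.82 from LSK cells to WT LICs (SE 0.22, limma adjusted p = 0.00887), with means of 9.52, 7.70 and 8.34. With the mean of all its probe sets the difference was -1.21 and the call was lost (limma adjusted p = 0.0502). It was the single neighbour called in that comparison, and 0 were called between KO LICs and LSK cells. In the latter, 10 had an unadjusted limma p under 0.05, or 27.0% of the neighbours beside 19.2% of all genes.

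Markers of early B cells had their highest summed intensity in the KO samples. Means above background were found for 11 of the 15 measured in LSK cells, 6 in WT LICs and 11 in KO LICs. As a list they were thus not confined to KO LICs, and their correlation with the members was not computed. Of 15 B lineage markers measured, limma called 6 higher in KO than in WT LICs and 0 lower, with a median difference of 3.69. An unadjusted limma p under 0.05 was found for 12 of the 15. Of all genes, 0.589% were called higher there and 11.1% had an unadjusted p under 0.05. Cd79a, a signalling chain of the B cell receptor, averaged 4.73 in LSK cells, 4.80 in WT LICs and 8.49 in KO LICs (KO minus WT 3.69, SE 0.34, limma adjusted p = 0.00753). Igll1, part of the surrogate light chain, averaged 4.38, 5.61 and 10.83 (5.23, limma adjusted p = 0.00753). Vpreb3 averaged 4.02, 4.29 and 8.58 (4.29, limma adjusted p = 0.00753), and the recombinase gene Rag1 averaged 4.72, 3.98 and 9.25 (5.26, limma adjusted p = 0.00985; lost without WT LIC replicate 1 or KO replicate 2). The summed linear intensity of the 15 markers was 1143 to 1952 in LSK cells, 511 to 1019 in WT LICs and 5870 to 9238 in KO LICs. Pax5, Ms4a1, Blk and Cd22 were under background in all groups. The part of these cells or transcripts in the level of Enpep, or of any other member, was not tested.

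Markers of other cell types that express some of the members were not called between KO and WT LICs. Of 9 epithelial markers, Krt8, Krt14, Krt19, Cdh1, Cldn4 and Elf3 had means under background in every group. The other 3, Epcam, Krt5 and Krt18, had means above it in every group, and Epcam averaged 5.59 in LSK cells, 6.12 in WT LICs and 7.48 in KO LICs. Limma called 0 of the 9 between KO and WT LICs (1 at an unadjusted p under 0.05), and their summed intensity was 2179 to 2261 in LSK cells, 475 to 720 in WT LICs and 916 to 1061 in KO LICs. Of 9 stroma and osteoblast markers, 7 were under background in every group, Col1a1, Sp7 and Cxcl12 among them. Their sums were 285 to 476, 247 to 361 and 249 to 288, and limma called 0 (1 at an unadjusted p under 0.05). The endothelial markers Cdh5, Kdr and Cldn5 were under background throughout, and 4, 4 and 5 of the 8 were above it in LSK cells, WT LICs and KO LICs. The 8 summed to 1032 to 1596, 328 to 394 and 362 to 486, and limma called 0 (2 at an unadjusted p under 0.05). The 10 neutrophil markers summed to 13131 to 14243, 15744 to 18090 and 9264 to 16127, with 0 called by limma and 0 at an unadjusted p under 0.05. The epithelial and endothelial sums, like Dsg2, Dsc2 and Sdc4, were higher in LSK cells than in WT LICs, and their part in those 3 genes was not tested.

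Markers of antibody-secreting cells were highest in LSK cells, where Dsg2, Dsc2 and Sdc4 were present. The 7 measured summed to 9207 to 12480 in LSK cells, 1239 to 1520 in WT LICs and 1435 to 1905 in KO LICs. Igk averaged 12.74, 3.57 and 3.78, and Jchain 10.89, 5.12 and 4.23. Sdc1, of the same list, differed from these 2, with means of 10.42 in LSK cells, 7.21 in WT LICs and 9.39 in KO LICs. Limma called 0 of the 7 between KO and WT LICs (3 at an unadjusted p under 0.05). The part of such cells in the levels of Dsg2, Dsc2 and Sdc4 was not tested.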

How the data were processed

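Expression values were taken from the deposited table of 22690 probe sets by 8 Affymetrix arrays. Per the labels, RNA was extracted from cells sorted into lysis buffer, amplified by single-primer isothermal amplification and labelled with biotin. RMA is named, without version or settings, per the submitters' processing notes. The deposited values were linear intensity values from 1.94 to 19343, although log2 values had been assumed in planning; log2 was taken of the deposited intensities with no pseudocount. Sorted values differed between arrays by an SD of at most 0.0815.

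Control probe sets (64), those with several symbols (691) and those not listed in the platform annotation (1555) were left out. A gene took its probe set with the highest mean. Groups were fitted together with limma 3.58.1 (lmFit, eBayes, 5 residual degrees of freedom) in R 4.3.3, 2-sided, with Benjamini-Hochberg adjustment over 12393 genes and calls at an adjusted p under 0.05. Neighbours and promoters came from RefSeq (GRCm38.p6), to which 20351 of 20380 probe sets with 1 symbol matched by gene number. Plots used matplotlib 3.10.9.

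The members, lists and tests were chosen with earlier results of these data known. Named were the members, Ezh2, Ezh1, listed or neighbouring genes called in a comparison (up to 4 per list, by p), the 3 closest genes per member by Pearson r, the desmosomal cadherins, the syndecans, and B lineage markers called (up to 4); others were chosen after their values were seen. Alternatives covered dim genes, scaling, pseudocount, prior, array weights, samples, block, probe set summary, threshold and each array left out. Same-numbered samples correlated by -0.051 to 0.145 in their deviations from group means. With so few arrays per group this cannot show whether the numbers pair the samples. The main fit did not use them as pairs. The number of arrays limits the precision.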

Additional observations from a re-analysis of the deposited data

How the results depend on the processing

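The 7 KO to WT differences kept their sign under all alternatives run. The members had been chosen on that contrast in these same arrays, so nothing is read from this. Called genes numbered 424 for WT LICs against LSK cells, and 917 with array weights, 252 with a replicate block, 83 at an adjusted p under 0.01 and 176 to 643 with 1 array left out. For KO LICs against LSK cells they numbered 430, and 147 with the replicate block, 66 at 0.01 and 118 to 643 with 1 left out. For KO against WT LICs they numbered 79, and 119 with array weights, 35 with the compared groups alone, 36 with the replicate block, 18 at 0.01 and 25 to 146 with 1 left out. Without WT LIC replicate 3 the counts were 643, 643 and 146. Members called lower in WT LICs than in LSK cells numbered 3, and 0 at 0.01 and 1 to 3 with 1 left out, being 1 (Dsc2) when WT LIC replicate 2 or any 1 LSK array was left out. Members called against LSK cells in KO LICs stayed between 3 and 5. Of the other listed genes 1 was called between KO and WT LICs, and 2 (Gpc3 and Ncam1) with a trended robust prior or with array weights, 0 at 0.01 and 0 to 3 with 1 left out, being 0 without WT LIC replicate 2. Of the neighbours 0 were called, and 0 to 1 with 1 left out (Tmprss13 without KO replicate 2). The cause of these moves was not tested. A filter at the 40th percentile removed Dsc2. A pseudocount of 16 shrank KO to WT differences, to 2.66 for Enpep and 1.68 for Cldn7, and the mean of all probe sets gave 2.24 for Dsg2 and 1.60 for Dsc2. Median centring moved the median of all genes from 0.02 to 0.15 in WT LICs against LSK cells and from -0.02 to 0.11 in KO LICs against LSK cells; the share of calls that were higher went from 37.0% to 58.3% and from 46.5% to 66.6%. With 2 KO arrays, and members under background in a group, sizes there are bounds only.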

Other observations

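Ncam1 and Gpc1, chosen after their values were seen, also read higher in both Ezh2 KO samples than in any WT LIC sample, without passing the test. Ncam1, a neural cell adhesion molecule, read 5.82, 7.64 and 7.31 in LSK cells, 4.38, 4.15 and 4.33 in WT LICs, and 9.23 and 7.11 in KO LICs (KO minus WT 3.88, SE 0.69, limma adjusted p = 0.0765). Gpc1, a glypican, read 7.75, 8.47 and 8.27 in LSK cells, 7.15, 7.30 and 6.02 in WT LICs, and 9.44 and 8.68 in KO LICs (2.23, SE 0.44, limma adjusted p = 0.108).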
